A study of Mus musculus with 2 samples.

Results

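The cells described here are the cycling cells among sorted liver myeloid cells of 4 mice. A cell was counted as cycling when at most 25% of its counts came from mitochondrial genes and at least 5 of 9 genes of DNA replication and mitosis (Top2a, Birc5, Ccna2, Ube2c, Nusap1, Ccnb2, Cenpe, Rrm2 and Pclaf) had a count above 0. By this rule 263 of 15384 cells were cycling, 1.71% (exact 95% interval 1.51 to 1.93). The cells were chosen by the counts of these 9 genes, so the levels of those genes are a description of what was chosen and not a finding.

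The study asked how the transcription factor Egr2 shapes liver macrophages in metabolic dysfunction-associated steatohepatitis (MASH). Cells came from 1 mouse in each of 4 groups: an Egr2fl/fl mouse and a Lyz2Cre/+.Egr2fl/fl mouse on normal diet (ND), and 1 mouse of each genotype given CDA-HFD, a choline-deficient high-fat diet with defined amino acids, for 7 weeks, with male mice of 6 to 12 weeks of age named for the diet model. All 4 mice carry Egr2 flanked by loxP sites, and in the Lyz2Cre/+.Egr2fl/fl mice Cre made from the Lyz2 locus, which is active in myeloid cells and not in all dendritic cells, removes it. Liver cells with CD45.2 and CD11b and without CD90.2, B220, NK1.1 or SiglecF were sorted, tagged with 1 hashtag per mouse and pooled, with 3000 cells loaded per mouse on ND and 9000 per mouse on CDA-HFD, for single-cell RNA sequencing on the BD Rhapsody system with TAS-Seq amplification. Values below keep the order ND-fed Egr2fl/fl, ND-fed Lyz2Cre/+.Egr2fl/fl, CDA-HFD-fed Egr2fl/fl, CDA-HFD-fed Lyz2Cre/+.Egr2fl/fl. With 1 mouse per group no test between diets or genotypes was possible, and all intervals are 95% intervals that cover counting error only.

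A dividing cell first copies its DNA in S phase and then builds a spindle and separates the chromosomes in G2 and M phase. E2F factors switch on the genes of S phase, and the MuvB complex with B-Myb and FoxM1 switches on those of G2 and M. Tissue macrophages such as Kupffer cells can renew themselves by division in place, conventional dendritic cells arise from precursors that go on dividing in tissues, whereas mature neutrophils have left the cell cycle and circulating monocytes divide little.

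Promoters of genes that chose the cells are shown because letters to which these factors bind stand in some of them. The RefSeq table for GRCm38.p6 held 8 of the 9 genes, without Ccna2. In the 250 bases before the start and on both strands, the cell cycle homology region TTTGAA, a site of MuvB, was found in 3 of the 8 and in 18.3% of all 27025 genes of the table, counting a gene once if any of its promoters held the letters. CCAAT, the letters bound by NF-Y, was found in 6 of the 8 and in 37.5% of all genes. The E2F motif was searched as TTTGGCG along with the variant form TTTCCCG and the rarer spelling TTTCGCG besides the related letters TTTGCCG, and 1 or more of these stood in 2 of the 8 and in 6.34% of all. Top2a, Ube2c and Ccnb2 held both TTTGAA and CCAAT, a pair found in 6.45% of genes, and 1 pair of CCAAT matches of Ube2c on opposite strands overlapped. The 120 bases that end just before the start follow, read 5′ to 3′ on the strand of the gene, with the matches in capitals, where TTCAAA is the first motif read on the other strand and ATTGG is the second. They lie at chr11:99024190-99024309 (minus strand) for Top2a, at chr2:164769809-164769928 (plus strand) for Ube2c, at chr9:70421555-70421674 (minus strand) for Ccnb2, at chr11:117849117-117849236 (plus strand) for Birc5 and at chr9:65890203-65890322 (plus strand) for Pclaf. Each is sequence upstream of the gene.
Top2a: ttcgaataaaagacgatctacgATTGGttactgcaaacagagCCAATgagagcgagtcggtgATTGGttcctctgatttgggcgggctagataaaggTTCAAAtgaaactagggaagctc
Ube2c: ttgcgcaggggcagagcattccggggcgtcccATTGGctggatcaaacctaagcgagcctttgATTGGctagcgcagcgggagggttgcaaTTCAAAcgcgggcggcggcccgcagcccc
Ccnb2: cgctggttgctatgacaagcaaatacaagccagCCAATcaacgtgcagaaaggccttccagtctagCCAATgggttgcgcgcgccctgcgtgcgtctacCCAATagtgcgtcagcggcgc
Birc5: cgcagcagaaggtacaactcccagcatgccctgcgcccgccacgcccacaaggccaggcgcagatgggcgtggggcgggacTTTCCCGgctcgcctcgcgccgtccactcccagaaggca
Pclaf: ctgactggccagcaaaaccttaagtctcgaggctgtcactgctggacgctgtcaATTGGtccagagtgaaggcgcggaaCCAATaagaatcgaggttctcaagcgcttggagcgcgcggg
Top2a and Ube2c had TTTGAA in reverse 18 and 24 bases before the start, downstream of CCAAT matches, and the match of Ccnb2 lay further upstream, from base -167 to -162. Birc5 had TTTCCCG and Pclaf had 2 CCAAT matches and neither of the other motifs in the window. Over the G2 and M phase gene list used below, 47 of 54 genes had a promoter in the table, and 17 of these, 36.2%, held both TTTGAA and CCAAT, beside the 6.45% of all genes. Of 17 replication fork genes with a promoter 0 held the pair and 4, 23.5%, held an E2F match. An E2F match also stood in 8 of the 47 G2 and M phase genes, 17.0%. In other lists the pair did not follow the phases. It stood in 4 of 31 S phase genes (12.9%), 3 of 14 origin licensing and helicase genes (21.4%) and 0 of 13 mitotic kinase and checkpoint genes. A match of letters was not shown to be a bound site.

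The threshold cut through a continuous range. There were 12998 cells with no gene of the rule, 1837 with 1, 183 with 2, 62 with 3, 41 with 4 just outside the rule, 45 with 5 just inside it and 69 with all 9. Mki67, which encodes the proliferation antigen Ki-67 and was no part of the rule, had a count in 3.14% of cells with no gene of the rule, in 68.3% of cells with 4, in 80% with 5 and in at least 98.6% of the cells at each higher number. Among the cycling cells Birc5, the survivin gene of the chromosomal passenger complex, had a count in 97.7%, Pclaf, which binds the clamp PCNA, in 93.2%, and Rrm2, a subunit of ribonucleotide reductase, in the fewest, 61.2%. In neutrophil-like cells, which give the level of background, Mki67 had a count in 1.46%, Pclaf in 3.31% and Ccna2 in 0.0974%. The median depth was 4063 counts in those cells and 28589 to 33307 counts in the cycling cells of a mouse, so these shares are at unlike depths.

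**Figure D1:**
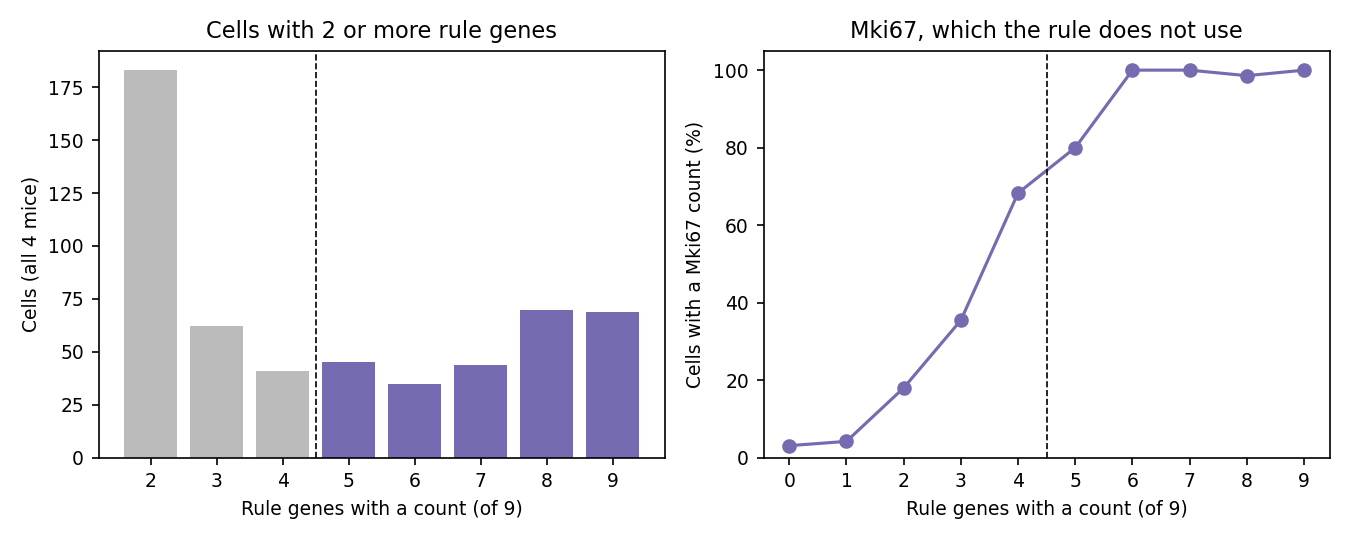
Left, number of cells of all 4 mice (y axis) by how many of the 9 genes of the rule had a count (x axis, 2 to 9), cycling cells in purple; right, percent of those cells with a Mki67 count (x axis, 0 to 9 genes). The dashed lines mark the threshold, with 41 cells just outside and 45 just inside it, and Mki67 goes from 3.14% at no gene to 80% at 5 genes.

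Cycling cells were found in every mouse, at 45 of 1723 cells (2.61%, 1.91 to 3.48), 29 of 1590 (1.82%, 1.22 to 2.61), 85 of 5885 (1.44%, 1.16 to 1.78) and 104 of 6186 (1.68%, 1.38 to 2.03). The share was lower on CDA-HFD than on ND by 1.17 points in the Egr2fl/fl mice (difference -1.17, -2.08 to -0.389). In the Lyz2Cre/+.Egr2fl/fl mice the difference was -0.143 points (-0.985 to 0.552), and the interval of the genotype difference held 0 on both diets. With class shares set to the mean of all mice, given at the end, both diet differences lay further below 0. Cycling cells were deeper than the others, at 30186, 33307, 28589 and 29000 median counts beside 16201, 15453, 13065 and 13364. When cells were thinned to 5000 counts, which leaves out 176, 239, 991 and 829 shallower cells, the shares were 2.13%, 1.26%, 1.10% and 1.18%, and the ND-fed Egr2fl/fl mouse was again the highest. No cell barcode number was shared between mice. Scrublet doublet scores at or above the cutoff of the highest 6% of a mouse, ties included, marked 111, 104, 413 and 421 cells. Of the cycling cells 8, 5, 13 and 9 (17.8%, 17.2%, 15.3% and 8.65%) were among them, a higher share than over all cells in each mouse. Mki67 levels, in counts per 1000000 counts summed over the cycling cells (CPM), were 414 (381 to 449), 360 (324 to 400), 346 (323 to 369) and 344 (325 to 364), and Mki67 had a count in 45 of 45, 29 of 29, 81 of 85 and 98 of 104 cells.

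The labels were checked against the targeted gene. In the cycling cells Egr2 stood at 4.23 and 1.01 CPM on ND and at 66.6 and 23.0 CPM on CDA-HFD, a Lyz2Cre/+.Egr2fl/fl to Egr2fl/fl ratio of 0.345 (0.261 to 0.453) on CDA-HFD. On ND the ratio of 0.240 had an interval that held 1 (0.00522 to 1.98), and over all cells the ratios were 0.441 (0.366 to 0.530) on ND and 0.369 (0.349 to 0.391) on CDA-HFD. Egr2 was not at 0 in the mice labelled as deleted, it was not lower in each class (33.8 and 52.5 CPM in the other Cd209a+ cells on ND), and whether counted reads lie in the deleted part of the gene was not given in the sources used here. The labelled sort excludes T, B and NK cells, yet 5 of the 263 cycling cells, all from ND-fed mice, were placed among T or NK cell-like (3) and B or plasma cell-like cells (2), and the other 258 were not.

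To find the parent type of each cycling cell, the 14835 cells with at most 1 gene of the rule were clustered without cell cycle genes, clusters were named from marker lists, and each cycling cell took the cluster most common among its 20 nearest clustered cells, and the class of that cluster. Names end in -like because they rest on markers. Of the cycling cells 236 (89.7%) had at least 75% of their neighbours in 1 cluster, the median was 100% and 8 had at most 50%. Dendritic cell-like classes held 158 of the 263 (60.1%, 53.88 to 66.04), macrophage-like classes 91 (34.6%, 28.9 to 40.7) and monocyte-like classes 4 (1.52%, 0.416 to 3.85).

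Cd209a+ dendritic cell-like cells, which carry the C-type lectin Cd209a and markers of conventional dendritic cells, were the most frequent parent in 3 of the 4 mice. The order was not stable: Kupffer cell-like parents led in the ND-fed Lyz2Cre/+.Egr2fl/fl mouse at a clustering resolution of 2.0 and by marker score, and Cd209a+ parents led in the CDA-HFD-fed Lyz2Cre/+.Egr2fl/fl mouse by marker score and with at least 6 genes. With the placement used here Cd209a+ parents gave 20 of 45, 11 of 29, 51 of 85 and 40 of 104 cycling cells, which is 44.4%, 37.9%, 60% and 38.5%. In the CDA-HFD-fed Lyz2Cre/+.Egr2fl/fl mouse monocyte-derived macrophage-like cells led with 44 of 104 (42.3%, 32.7 to 52.4), and this interval overlapped that of the Cd209a+ cells (29.1 to 48.5). Monocyte-derived macrophage-like parents made up 4 of 45, 3 of 29, 24 of 85 and 44 of 104 (8.89%, 10.3%, 28.2% and 42.3%), higher on CDA-HFD in both genotypes, as was the class itself, at 4.99%, 5.09%, 22.9% and 24.1% of all cells. Kupffer cell-like parents, the resident macrophages of the sinusoid, gave 4 and 9 cycling cells on ND and 2 and 1 on CDA-HFD. Xcr1+ dendritic cell-like parents, the cross-presenting type, gave 12, 4, 5 and 14. With both genotypes summed on each diet, 48 of 383 dendritic cell-like cells (12.5%, 9.39 to 16.3) were cycling on ND and 110 of 2247 (4.90%, 4.04 to 5.87) on CDA-HFD, whereas 20 of 1608 macrophage-like cells (1.24%, 0.761 to 1.91) were cycling on ND and 71 of 2856 (2.49%, 1.95 to 3.13) on CDA-HFD. The dendritic cell-like cells differed in make-up between the diets. Xcr1+ dendritic cell-like cells numbered 41 and 14 of the 383 on ND but 22 and 57 of the 2247 on CDA-HFD. Over all mice 26.1% of that class was cycling, and its part in the summed difference was not tested. The macrophage-like cells were mostly Kupffer cell-like on ND and mostly monocyte-derived macrophage-like on CDA-HFD, and within the latter class the share was not higher on CDA-HFD in either genotype.

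**Figure D2:**
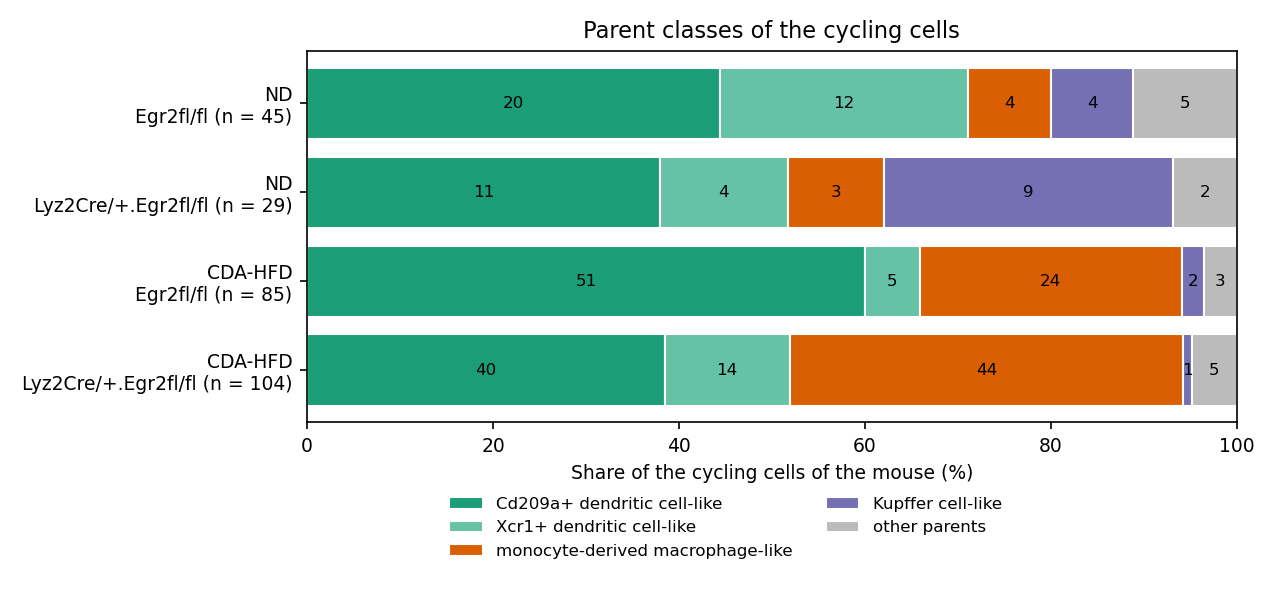
Share of each mouse's cycling cells (x axis, percent) by the class of their parent, 1 bar per mouse, with numbers of cells in the bars. The Cd209a+ dendritic cell-like part is largest in 3 bars, and the monocyte-derived macrophage-like part is 28.2% and 42.3% on CDA-HFD beside 8.89% and 10.3% on ND.

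How often a class was cycling is a different measure, since classes differ in size. Xcr1+ dendritic cell-like cells had the highest share in each mouse among the classes with at least 14 cells, 12 of 41 (29.3%, 16.1 to 45.5), 4 of 14 (28.6%, 8.39 to 58.1), 5 of 22 (22.7%, 7.82 to 45.4) and 14 of 57 (24.6%, 14.1 to 37.8). The 4 intervals overlapped widely, and no difference between diets was detectable with so few cells. Over all mice 26.1% (18.9 to 34.4) of this class was cycling beside 5.45% (4.54 to 6.47) of Cd209a+ dendritic cell-like cells. The sort took cells with CD11b, which many dendritic cells of the Xcr1+ type and many Kupffer cells carry at a low level, so the shares hold for the cells that passed the gate. Thinned to 5000 counts, Xcr1+ cells stood at 26.8%, 14.3%, 18.2% and 14.04%.

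In the Cd209a+ class 20 of 162 cells (12.3%, 7.71 to 18.4), 11 of 134 (8.21%, 4.17 to 14.2), 51 of 1010 (5.05%, 3.78 to 6.59) and 40 of 934 (4.28%, 3.08 to 5.79) were cycling. The share was lower on CDA-HFD by 7.30 points in Egr2fl/fl mice (difference -7.30, -13.5 to -2.41) and the difference was -3.93 points in Lyz2Cre/+.Egr2fl/fl mice, where the interval held 0 (-10.1 to 0.384). Thinned to 5000 counts, the shares were 8.75%, 6.92%, 3.93% and 3.15%. The class was itself larger on CDA-HFD, at 9.40%, 8.43%, 17.2% and 15.1% of all cells, and more cells were loaded from the CDA-HFD-fed mice, so numbers of cycling cells cannot be compared between diets. Between genotypes the difference was -4.14 points (-11.4 to 3.45) on ND and -0.767 (-2.72 to 1.20) on CDA-HFD.

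Monocyte-derived macrophage-like cells were cycling at 4 of 86 (4.65%, 1.28 to 11.5), 3 of 81 (3.70%, 0.770 to 10.4), 24 of 1347 (1.78%, 1.14 to 2.64) and 44 of 1493 (2.95%, 2.15 to 3.94). The class joined a cluster led by Olfml3, Tmem119, Pf4 and Ms4a7 with a cluster led by Mmp12, F7, Spp1 and Gpnmb, and nearly all of the latter came from CDA-HFD. In the Olfml3 cluster 4 of 81 (4.94%, 1.36 to 12.2), 3 of 78 (3.85%, 0.800 to 10.8), 19 of 463 (4.10%, 2.49 to 6.33) and 29 of 587 cells (4.94%, 3.33 to 7.02) were cycling, and the 4 intervals overlapped. Thinned to 5000 counts, the cluster stood at 2.63% (0.320 to 9.18), 3.90% (0.811 to 10.97), 1.08% (0.352 to 2.50) and 2.39% (1.31 to 3.98), so the value of the CDA-HFD-fed Egr2fl/fl mouse depended on depth and was then the lowest. In the Mmp12 cluster the ND-fed mice had 5 and 3 cells and none cycling, and on CDA-HFD 5 of 884 (0.566%, 0.184 to 1.31) and 15 of 906 (1.66%, 0.930 to 2.72) were cycling. The Lyz2Cre/+.Egr2fl/fl mouse was higher there by 1.09 points (0.0466 to 2.22), but thinned the shares were 0.340% (0.0701 to 0.990) and 0.883% (0.382 to 1.73), with overlapping intervals. The cycling cells compared had medians of 23848 and 45807 counts, and the 5 cells of the Egr2fl/fl mouse had a median of 50% of their neighbours in this cluster. Among CDA-HFD-fed mice the Olfml3 cluster thus had the higher cycling share in both genotypes. Thinned to 5000 counts it was again higher in both, but the intervals of both clusters then overlapped in each genotype. The cycling cells of the class had a median of 6 genes of the rule, with 20 of 75 at the threshold of 5, and thinned to 5000 counts the class stood at 2.47%, 3.75%, 0.594% and 1.47%.

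Kupffer cell-like cells were the largest class on ND, at 41.0% and 46.2% of cells, and 4 of 706 (0.567%, 0.155 to 1.44) and 9 of 735 (1.22%, 0.561 to 2.31) were cycling, a difference of 0.658 points (-0.442 to 1.82). The CDA-HFD-fed mice had 3 and 13 cells in the class, of which 2 and 1 were cycling, too few for a share. These cycling cells also lay near the threshold, with a median of 6.5 genes of the rule beside 8 in Cd209a+ cells, and thinning left 1 and 2 of them on ND (0.142% and 0.272%).

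Cycling monocytes were rare at this depth. Of Ly6Chi monocyte-like cells 0 were cycling in both ND-fed mice, which by a limit of 3 counts allows shares of up to 2.16% and 2.86% (exact upper bounds 2.62% and 3.45%), and on CDA-HFD 1 of 1460 (0.0685%) and 3 of 1555 (0.193%, 0.0398 to 0.563). The 3 cells of the CDA-HFD-fed Lyz2Cre/+.Egr2fl/fl mouse had the monocyte markers Ly6c2 at 6034 and Chil3 at 6981 CPM, whereas the 1 cell of the Egr2fl/fl mouse had Ly6c2 at 39.8 CPM and no count of Plac8 or Fn1. No Ly6Clo monocyte-like cell was cycling in any mouse, 0 of 120, 0 of 73, 0 of 252 and 0 of 323, which allows up to 2.50%, 4.11%, 1.19% and 0.929% by the same limit. Neutrophil-like cells gave 1 of 2054 (0.0487%), at a median of 4063 counts, and the neutrophil precursor-like class 3 of 34 (8.82%, 1.86 to 23.7), where the mice had 1, 3, 6 and 24 cells and 0, 0, 1 and 2 of them were cycling, too few on ND to compare the diets. These 3 cells, 1 and 2 in the CDA-HFD-fed mice, had the secondary granule genes Camp, at 53005 and 58015 CPM, Ngp and Ltf, and no count of the primary granule genes Mpo, Elane, Prtn3 and Ctsg. The last cycling cells were 1 Ccr7+ dendritic cell-like and 1 interferon-responding-like cell of the ND-fed Egr2fl/fl mouse, and none of the 1489 cells in unnamed clusters was cycling.

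**Figure D3:**
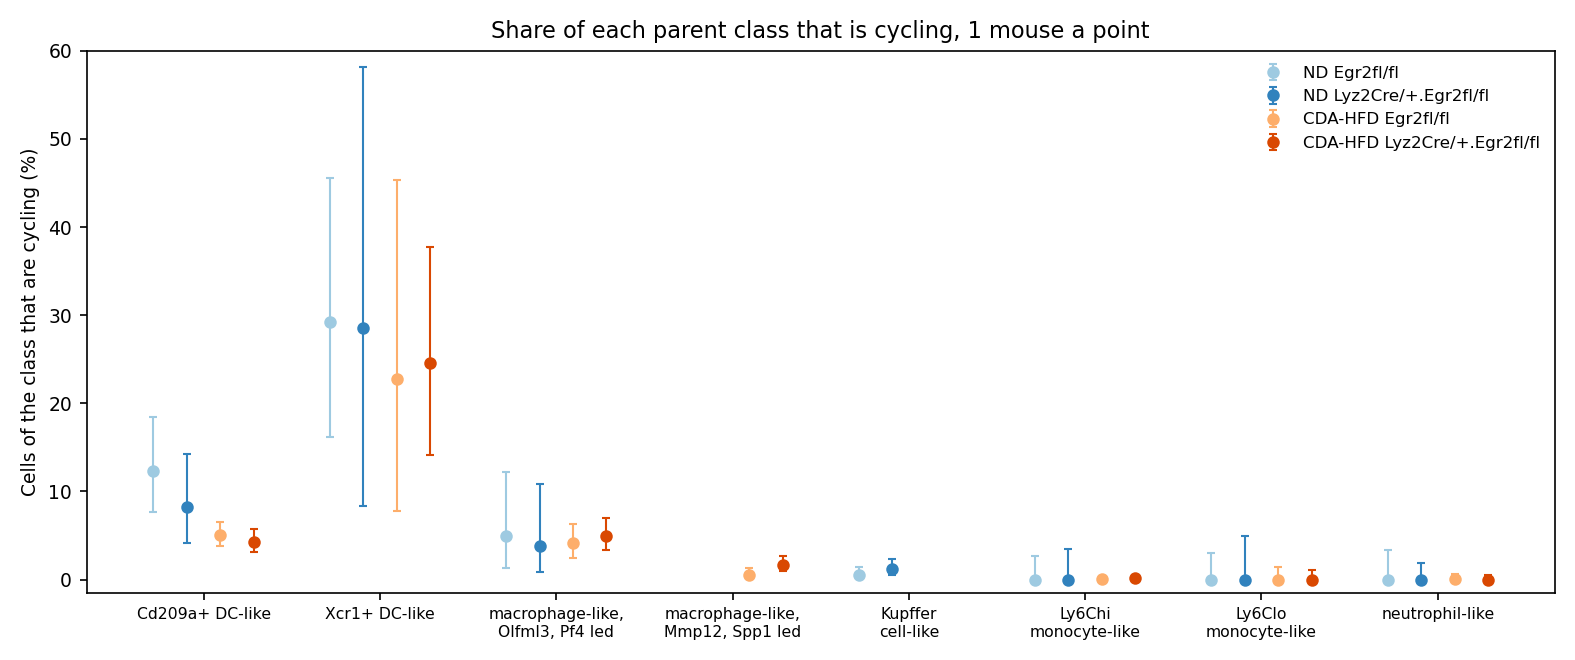
Percent of the cells of a class that were cycling (y axis) in each mouse, with exact 95% intervals as error bars, classes on the x axis. Classes with under 14 cells in a mouse are left out for that mouse. Xcr1+ dendritic cell-like cells stand highest, at 22.7% to 29.3%, and Cd209a+ cells of the CDA-HFD-fed mice, at 5.05% and 4.28%, stand below those of the ND-fed mice.

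The defining genes of the parents were detected in most cycling cells of the 4 main classes, with exceptions. In Cd209a+ parents the cycling cells had Cd209a at 811 CPM in 18 of 20 cells, 1100 in 8 of 11, 600 in 41 of 51 and 273 in 26 of 40, beside 1200.3, 1339, 726 and 747 CPM in the other cells of the class. The level was lower in the cycling cells of all 4 mice and lowest in the CDA-HFD-fed Lyz2Cre/+.Egr2fl/fl mouse. Flt3, the growth factor receptor of dendritic cells, stood at 39.0, 36.7, 91.2 and 81.0 CPM in them. Csf1r, the receptor of macrophage colony-stimulating factor, stood at 128, 153, 219 and 183 CPM, below the other cells of the class (208, 256, 313 and 364). The monocyte gene Ly6c2 stood at 3.72, 6.67, 25.4 and 36.5 CPM beside 92.5, 52.5, 62.9 and 112, and the chemokine receptor gene Ccr2 at 275, 250, 335 and 293 CPM beside 403, 285, 457 and 541. Cdkn2c, an inhibitor of CDK4 and CDK6, went the other way, at 85.5, 120, 61.0 and 71.1 CPM beside 14.6, 10.2, 8.11 and 7.55. Egr2 had a count in 1 of 20, 1 of 11, 20 of 51 and 10 of 40 of these cycling cells, at 1.86, 3.33, 109 and 47.4 CPM beside 33.8, 52.5, 45.2 and 40.2 in the other cells of the class, so both ND-fed mice and not the CDA-HFD-fed mice lay below. In the CDA-HFD-fed Lyz2Cre/+.Egr2fl/fl mouse 1 cell of this class held 20.3% of the Egr2 counts of all cycling cells. Irf8, Xcr1 and Clec9a marked the cycling cells of the Xcr1+ class, with Irf8, which drives this lineage, at 1930, 2162, 1593 and 2003 CPM and Xcr1 at 451, 380, 349 and 432 CPM. Neither range separated the diets.

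In cycling Kupffer cell-like cells the lectin gene Clec4f stood at 4615, 5450, 4020 and 2895 CPM, with a count in 16 of 16 cells. The complement receptor gene Vsig4 stood at 1472, 2506, 2101 and 1796 CPM. Timd4, a receptor of long-lived resident macrophages, stood at 387 and 472 CPM on ND, with a count in 4 of 4 and 9 of 9 cells. Of the 3 cells on CDA-HFD 1 had Timd4. These cells thus carried resident Kupffer cell markers on ND, and the CDA-HFD-fed mice gave too few cells to compare.

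Cycling monocyte-derived macrophage-like cells differed between the diets in the genes of lipid-associated macrophages, with 7 cells on ND in all. All 7 lay in the Olfml3 cluster, whereas 5 of 24 and 15 of 44 cells on CDA-HFD lay in the Mmp12 cluster, and the part of this in the values below was not tested. Trem2, a lipid receptor, stood at 93.5, 126, 1063 and 982 CPM and had a count in 24 of 24 and 44 of 44 cells on CDA-HFD. Gpnmb had no count in the 4 and 3 cells on ND, and stood at 513 (467 to 561) and 885 (841 to 931) CPM on CDA-HFD. Spp1, which encodes osteopontin, had no count on ND and stood at 396 and 367 CPM on CDA-HFD. Lipoprotein lipase, Lpl, stood at 402, 301, 1708 and 2458 CPM. For each of these genes both CDA-HFD-fed mice were above both ND-fed mice, and the 7 cells on ND lacked Gpnmb and Spp1, markers of the class they were placed in. Csf1r had a count in all 75 cells, at 1132, 998, 869 and 755 CPM. The Kupffer cell genes Cd5l and Folr2 stood at 228 and 679 CPM and for Folr2 at 49.95 and 180 CPM on CDA-HFD in the Egr2fl/fl and the Lyz2Cre/+.Egr2fl/fl mouse, and Clec4f had a count in only 1 of 24 and 3 of 44 cells, and for Clec4f and Cd5l the deposited file holds no value from 1 to 4.

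Across the whole transcriptome the cycling cells were set against the other cells of the same classes, weighted to the same class shares. The rule used this contrast, so it is a description. Of 13458 genes with at least 200 counts over the 4 mice, 439 were at least 2 times higher in the cycling cells of each of the 4 mice (3.26% of the genes) and 33 were at most 0.5 times as high (0.245%). Of the 439, 189 belonged to lists of cell cycle genes and 250 did not.

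Tallies from here on leave out the genes of the rule, whose ratios the choice of cells fixed. All 24 kinetochore genes, all 25 spindle genes and all 15 mitotic kinase and checkpoint genes with enough counts were at least 2 times higher in each mouse, with median ratios of 16.2, 22.7 and 20.4. Stmn1, which frees tubulin from microtubules, was 21.4 to 37.3 times higher and Cdca8, a subunit of the chromosomal passenger complex, 23.3 to 34.3 times. The tubulin genes Tubb5 and Tuba1b were the most abundant of the spindle list, at 2107, 1794, 1244 and 1435 CPM for Tubb5. Of 42 S phase genes 32 were at least 2 times higher, with a median ratio of 4.17. Pcna, the sliding clamp, stood at 363 to 449 CPM beside 116 to 151 CPM in the other cells. Of 18 origin licensing and helicase genes 15 passed, among them Mcm5 and Gmnn, which encodes the licensing inhibitor geminin, and of 8 nucleotide supply genes 7, with thymidine kinase, Tk1, 11.3 to 24.5 times higher. Of 20 replication fork genes 14 passed, of 15 genes of chromatin assembly and DNA methylation 12, and of 20 DNA repair and checkpoint genes 14, with the ligase gene Lig1 5.03 to 7.47 times higher. Hmgb2, a chromatin protein of dividing cells, stood at 1833, 1583, 1399.6 and 1293 CPM beside 153, 119, 150 and 161 in the other cells. Of 16 condensin and cohesin genes 12 passed, with the condensin genes Smc4 and Smc2 at 5.86 to 7.66 and 8.18 to 14.9 times, and Smc1a, Smc3, Ncapg2 and Pttg1 did not.

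Control genes of the cycle split by role. Of 16 cyclins and CDKs 10 were at least 2 times higher in every mouse, with Ccnb1, the mitotic cyclin, 27.5 to 85.2 times and its kinase Cdk1 18.4 to 42.2 times higher. The D cyclins, which respond to growth factors before S phase, were not among them: Ccnd1 stood at 255, 237, 182 and 186 CPM beside 528, 419, 275 and 219 CPM in the other cells, and Ccnd2 had ratios of 0.356 to 0.569. Ccnd1 and Ccnd2 were lower in the cycling cells of all 4 mice. Of 11 CDK inhibitors and pocket proteins 4 were higher, Cdkn2c (7.16 to 8.62 times), Cdkn2d, Cdkn3 and Rbl1. Cdkn1a, which encodes the arrest factor p21, had ratios of 0.709 to 1.41. The antiproliferative genes Btg1 and Btg2 were lower in each mouse, at median ratios of 0.534 and 0.692. Of 17 E2F, MuvB and FoxM1 genes 5 were at least 2 times higher in each mouse, Foxm1 (24.7 to 39.4 times), the repressors E2f7 (10.9 to 15.9) and E2f8 (7.61 to 10.7), Mybl2, which encodes B-Myb (5.15 to 13.3), and the MuvB subunit Lin54 (2.27 to 5.57), while the activator E2f1 had ratios of 1.16 to 1.98. Of 17 genes of the anaphase-promoting complex and its regulators 4 passed, the activator Cdc20, the ubiquitin-conjugating enzyme Ube2s, the inhibitor Fbxo5 and the subunit Anapc5, while the other 13 had median ratios of 0.825 to 3.21.

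None of 16 growth factor receptors was at least 2 times higher in each mouse, where 3.26% of all 13458 genes were. At that share a list this short would often hold none, so this is no result about receptors. Of the 16 receptors 9 were lower in all 4 mice and 1, Il3ra, was higher in all 4 (1.30 to 2.04 times), with Csf1r at 0.593 to 0.897 and Csf3r at 0.548 to 0.611. How many of all genes were lower in all 4 mice was not counted, so these 9 have no share to stand beside. Of 25 growth and self-renewal transcription factors 1 passed, a count near the 3.26% of all genes. It was Mxd3, a MAX partner made in S phase (29.6 to 117 times). Another 13 were lower in all 4, again without a share over all genes, while Myc had ratios of 0.668 to 1.29. Of 12 genes of lipid-associated macrophages, the cells the study itself describes, and 5 genes of the Egr family and its corepressors none passed, with median ratios of 0.670 and 0.731. With 3.26% of all genes passing, lists of this size would often hold none. Ribosome biogenesis genes stood near the other cells, at a median ratio of 1.24.

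**Figure D4:**
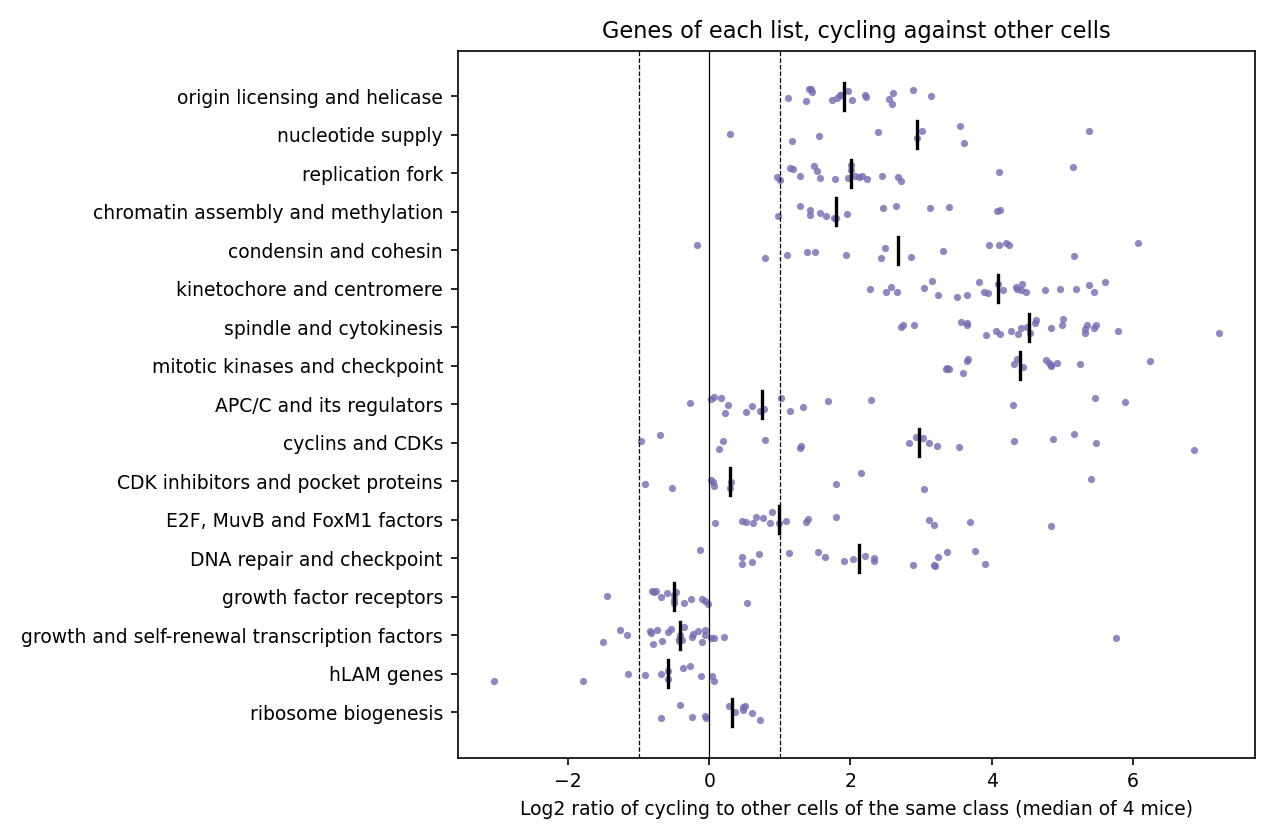
Log2 ratio of CPM in cycling cells to other cells of the same classes (x axis, median of the 4 mice), 1 point per gene by gene list (y axis), with the list median as a black bar and dashed lines at ratios of 2 and 0.5, genes of the rule included. Among the lists drawn, which leave out the rule genes as a list, the S phase and the G2 and M phase lists, the proliferation antigens and the Egr family, the spindle, mitotic kinase and kinetochore medians lie highest, at ratios of 23.0, 21.0 and 17.0, and the receptor median lies below 0 at a ratio of 0.710.

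Outside the lists the highest ratios belonged to replication-dependent histone genes, which are made in S phase and whose RNA mostly lacks a poly(A) tail. Hist1h2ap stood at 1647, 1077, 858 and 997 CPM beside 26.4, 22.4, 16.2 and 16.2 in the other cells, and Hist1h2ao and H2ac11 had median ratios of 48.7 and 40.9. H2ac6, Gm4739, Gm15452, H2az2, Hirip3, Gm10282 and Gm14150 followed, at 23.1 down to 5.69. The H2A genes are near copies of each other and some Gm entries may be copies of other genes, so the split of counts among them is uncertain. The lowest ratios included those of Ccl22, Ccl17 and Il4i1, which mature dendritic cells make, at medians of 0.108, 0.184 and 0.177, and of Retnlg and Mmp9, neutrophil genes, at 0.0902 and 0.1996. Retnlg has no deposited value above 0 that is below 6. On ND it stood at 0 CPM in cycling cells beside 2.82 and 18.4, so the added 1 CPM weighs on its ratios there. Few cycling cells had neutrophil-like or neutrophil precursor-like parents, and the part of these parents in both ratios was not tested. Cxcl9, Il1rn, C3, Tcp11l2 and Kdm5b stood at 0.155 to 0.243. Ccl22 stood at 10.6, 0, 79.8 and 104 CPM beside 234, 33.7, 341 and 145.

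Within the cycle, cells were placed by the S phase share of their S plus G2 and M phase counts, from 42 and 48 genes. The lists differ in abundance, with sums of 2791 and 7502 CPM over the cycling cells of all mice. Of the second list Hmgb2 alone stood at 1293 to 1833 CPM, so equal sums do not mark a boundary between phases. The median share was 18.8%, 17.2%, 22.2% and 21.7%, and 37 of the 263 cells (14.1%, 10.1 to 18.9) had more S phase than G2 and M phase counts, with 37 cells within 10 points of equal shares. In numbers these were 1 of 45, 5 of 29, 16 of 85 and 15 of 104. The median was 30.5% in Xcr1+ dendritic cell-like, 22.5% in monocyte-derived macrophage-like, 20.6% in Cd209a+ dendritic cell-like and 13.1% in the 16 Kupffer cell-like cells, and the cells of each class spread widely. Of the 263 cells 78 had Rrm2 and Pclaf without the pair Ccnb2 and Cenpe, 83 had Ccnb2 and Cenpe without the first pair, 83 had both pairs and 19 had neither. Most genes of the rule are G2 and M phase genes, so the rule itself favours cells late in the cycle.

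**Figure D5:**
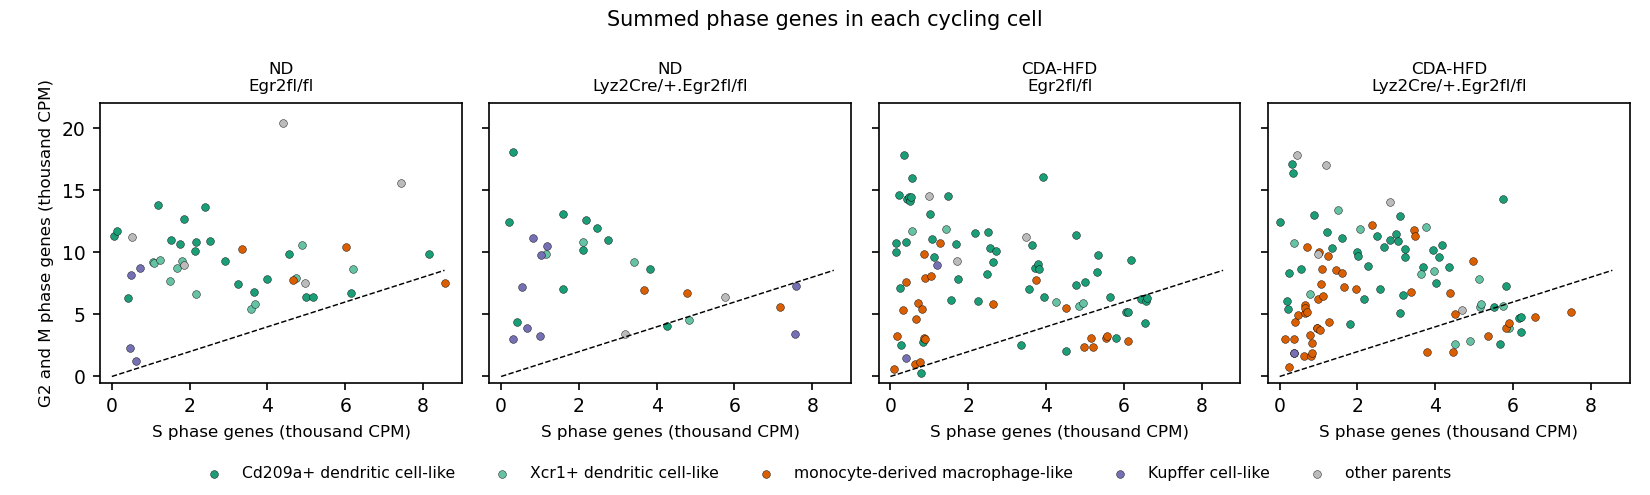
Summed S phase genes (x axis) against summed G2 and M phase genes (y axis) of each cycling cell, both in units of 1000 CPM, with 1 panel per mouse and 1 colour per parent class. On the dashed line both sums are equal, and 37 of 263 cells lie below it.

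Next, the cycling cells of the CDA-HFD-fed mice were compared with those of the ND-fed mice, over all parents. Of 2716 genes with at least 200 counts in the cycling cells of each pair of mice and a count in at least 5% of those of 1 mouse, 53 were at least 2 times higher (1.95%) and 12 at most 0.5 times as high (0.442%) on CDA-HFD in both genotypes. In the Egr2fl/fl mice alone 159 of 2819 genes were higher (5.64%) and 62 lower (2.2%), and in the Lyz2Cre/+.Egr2fl/fl mice 113 of 3086 were higher (3.66%) and 65 lower (2.11%). Some of the leading genes are markers of a parent class. Gpnmb stood at 2.11, 1.01, 188 and 437 CPM and Cd63, of the same macrophages, at 4.93, 3.04, 222 and 265 CPM, and both were near 0 in cycling Cd209a+ cells on CDA-HFD (at most 9.51 CPM). Both genes also differed between the diets within monocyte-derived macrophage-like parents, Gpnmb as given above and Cd63 at 0, 9.69, 604 and 523 CPM. The Kupffer cell genes Clec4f (510, 1778, 146 and 140 CPM), Apoc1 (125, 502, 38.2 and 45.7), Ccl24 (95.8, 219, 31.5 and 11.1) and Folr2 (148, 707, 56.8 and 99.7) were lower. In the ND-fed Egr2fl/fl mouse 1 Kupffer cell-like cell held 31.8%, 50%, 41.2% and 27.6% of the counts of these 4 genes, so their ratios there rest on few cells. When parent classes were given the same share in both mice, 37 genes were higher, 30 of them shared with the 53, and 6 were lower, 1 of them shared with the 12. S100a8 stood at 90.9, 91.3, 1188 and 2095 CPM, and 77.3% and 52.7% of its counts on CDA-HFD lay in 1 cell with a neutrophil precursor-like parent. Chil3 (3.52, 0, 106 and 416 CPM) was concentrated in such cells too, with 95.6% and 37.6% of its counts in 1 cell. Cxcl2 stood at 4.93, 10.1, 83.3 and 194 CPM, with a count in 1, 1, 8 and 14 cells, 32.7% of the counts of the CDA-HFD-fed Egr2fl/fl mouse in 1 Kupffer cell-like cell, and the deposited file holds no Cxcl2 value above 0 that is below 6. Plaat3, a phospholipase gene spread over the classes, stood at 202, 143, 80.2 and 55.5 CPM.

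Within Cd209a+ parents the diets could be compared in the Egr2fl/fl mice, with 20 and 51 cells. Of 1260 genes 59 were at least 2 times higher (4.68%) and 14 at most 0.5 times as high (1.11%) on CDA-HFD. Cdkn1a stood at 110 CPM on ND and 395 CPM on CDA-HFD (ratio 3.599, 2.74 to 4.80), and Klrd1, a lectin gene high in this class, at 166 and 442 CPM. Egr2 stood at 1.86 CPM, a count in 1 of 20 cells, on ND and at 109 (91.9 to 129), in 20 of 51 cells, on CDA-HFD. The heat shock genes Hspa1a and Hspa1b stood at 42.8 and 39.0 CPM on ND and at 1138 and 443 CPM on CDA-HFD. They were also higher in the CDA-HFD-fed Egr2fl/fl mouse over all its cells that were not cycling, Hspa1a at 86.3, 115, 944 and 278 CPM, so the difference was not confined to cycling cells. Mki67 had a CDA-HFD to ND ratio of 0.918 (0.781 to 1.08).

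The genotypes were compared on CDA-HFD. Of 3951 genes 23 were at least 2 times higher (0.582%) and 20 at most 0.5 times as high (0.506%) in the Lyz2Cre/+.Egr2fl/fl mouse. On ND, with 45 and 29 cells, 71 of 1781 genes were higher (3.99%) and 12 lower (0.674%), with the Kupffer cell gene Folr2 at 148 and 707 CPM, beside 4 and 9 Kupffer cell-like parents. These CDA-HFD counts follow the filter, with 517 and 486 genes of 11641 without it and 10 and 5 of 1802 at 500 counts or more. Highest on CDA-HFD were Ly6a2 (4.28 to 71.2 CPM, 35.5% of the latter counts in 1 neutrophil precursor-like cell), Ly6c2 (27.6 to 159), Adam8 (26.9 to 111), Chil3 and Ctsl (88.8 to 321). Of the Ly6c2 counts in the Lyz2Cre/+.Egr2fl/fl mouse 39.3% lay in 1 Ly6Chi monocyte-like cell. Lowest were Hspa1b (328 to 66.01), Ifitm1 (82.5 to 16.3), Hspa1a (807 to 181), Cd209a (306 to 80.8) and Gdf15 (93.8 to 25.01). With equal class shares 12 were higher and 17 lower, of which 10 and 12 were shared with those above.

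Within monocyte-derived macrophage-like parents on CDA-HFD, with 24 and 44 cells, 29 of 2017 genes were at least 2 times higher (1.44%) and 17 at most 0.5 times as high (0.843%) in the Lyz2Cre/+.Egr2fl/fl mouse. The protease gene Ctsl stood at 191 and 640 CPM, a ratio of 3.35 (2.85 to 3.95), and Adam8 at 51.0 and 210 CPM. Egr2 stood at 30.4 and 6.50 CPM, a ratio of 0.214 (0.0961 to 0.443), and Gdf15, a stress cytokine, at 260 and 49.7 CPM. Gpnmb had a ratio of 1.73 (1.56 to 1.92), Trem2 of 0.924 (0.853 to 1.00) and Mki67 of 1.14 (0.973 to 1.34). The cells of both clusters of this class entered at unlike numbers, 19 and 5 beside 29 and 15, and the part of this in the ratios was not tested. Within Cd209a+ parents on CDA-HFD 5 of 1638 genes were higher (0.305%) and 14 lower (0.855%). Cd209a stood at 600 and 273 CPM there and Egr2 at 109 and 47.4 CPM, a ratio of 0.433 (0.305 to 0.606), and Hspa1a at 1138 and 340 CPM.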

How the data were processed

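Liver myeloid cells of 4 mice, 1 per group, were pooled in 1 single-cell RNA sequencing library. The deposited table holds whole-number counts per gene and cell, which the authors made from reads mapped to a GRCm38 reference transcriptome and assigned to mice by hashtag. The labels place a molecular identifier in read 1, but the sources used here do not say if counts are of molecules or of reads. For 22 genes, none of them in the rule, the deposited counts hold no value above 0 that is below 5. R 4.2.1 and Seurat 4.1.1 are named in the submitters' processing notes. Of 16786 barcodes, 15394 carried a single mouse name and 15384 passed a limit of 25% of counts from 36 mitochondrial genes. Counts per kept cell ranged from 3115 to 86395. The 7 hashtag count columns were not used as expression. Barcodes named as doublets by the authors were left out, and no further doublets were removed.

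The members and gene lists were chosen with earlier results of these data known. Reference cells with at most 1 gene of the rule were clustered without cell cycle genes (Seurat 5.3.0 in R 4.3.3, variable genes with mean above 0.1 and dispersion above 0.5, 57 components, resolution 1.0), with a scale factor of 1000000, which the methods do not state. This gave 22 clusters, named from markers. Cells with 2 or more genes of the rule took the most common cluster among their 20 nearest reference cells and its class, where the class itself had been planned (scikit-learn 1.9.0), and reference cells placed in the same way kept their class in 96.6%. Shares have exact Clopper-Pearson, levels exact Poisson and differences of shares Newcombe intervals (Python 3.11.15, scipy 1.17.1). Ratios between groups of cycling cells have exact binomial intervals. Ratios of cycling to other cells add 1 CPM to both levels and were given as the range over mice in place of the binomial interval planned. With 1 mouse per group there were no residual degrees of freedom among mice, so no count test was run. edgeR 4.0.16 gave TMM factors for an alternative scaling only, and Scrublet in scanpy 1.11.5 gave doublet scores. Scripts were tested on simulated data.

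Genes outside the lists were named by a rule, the 10 highest and 10 lowest median ratios among those with at least 200 counts in each mouse and 1 direction in all 4. For diet and genotype the 5 highest and 5 lowest were named, beside markers and list members. Genes absent from the table, such as Egr4 and Mycn, were not analysed here. Promoters were taken from RefSeq.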

Additional observations from a re-analysis of the deposited data

Results flagged for a closer look

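The genotype difference in the share of cycling cells had opposite signs on the diets, -0.788 points (-1.84 to 0.264) on ND and 0.237 points (-0.219 to 0.693) on CDA-HFD, a gap of 1.02 points (-0.122 to 2.17). In monocyte-derived macrophage-like cells it was -0.947 points (-8.38 to 6.59) on ND and 1.17 points (-0.00607 to 2.34) on CDA-HFD, a gap of 2.11 points (-5.51 to 9.64). In the cluster led by Olfml3, Tmem119 and Pf4 the diet difference was -0.835 points (-8.24 to 3.38) in Egr2fl/fl mice and 1.09 points (-6.07 to 4.78) in Lyz2Cre/+.Egr2fl/fl mice, a gap of 1.93 points (-6.39 to 10.2). The genotype difference of the same cluster was -1.09 points (-8.93 to 6.76) on ND and 0.837 points (-1.91 to 3.47) on CDA-HFD, with the same gap of 1.93 points. Each was picked out because the sign differed between the diets or the genotypes. With 1 mouse per group these differences were not tested, and the interval of each gap held 0.

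Barcodes that the authors named as doublets lay outside every comparison. Of 1387 that passed the mitochondrial limit 32 had at least 5 genes of the rule, 2.31% (1.58 to 3.24), beside 1.71% of the cells assigned to 1 mouse. The median was 43324.5 counts in those 32 and 19028 in all 1387.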

How the results depend on the processing

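With 1 mouse per group no replicate could be left out. No paired analysis was possible because each group holds 1 mouse and the labels give no replicate numbers. Of 158 values that answer a comparison, counted over all alternatives, 137 stayed within their interval or within 1.5 times, 21 moved and 0 reversed, and of 358 values for single genes or classes 315 stayed, 42 moved and 1 reversed. The cause of a move was not tested unless the alternative itself leaves out genes or cells.

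A rule of at least 6 genes gave a share of 1.12% in the CDA-HFD-fed Egr2fl/fl mouse. Thinning to 5000 counts, which leaves fewer genes with a count, gave shares of 1.10% and 1.18% in the CDA-HFD-fed mice, 14.04% of Xcr1+ dendritic cell-like cells in the CDA-HFD-fed Lyz2Cre/+.Egr2fl/fl mouse, 0.594% and 1.47% of monocyte-derived macrophage-like cells on CDA-HFD and 0.142% and 0.272% of Kupffer cell-like cells on ND. The share of the leading parent was 28.9% in the ND-fed Egr2fl/fl mouse at a clustering resolution of 2.0 and 37.6% in the CDA-HFD-fed Egr2fl/fl mouse when cells were placed by marker score. Under both settings Kupffer cell-like parents led in the ND-fed Lyz2Cre/+.Egr2fl/fl mouse with 9 of 29. Cd209a+ parents led in the CDA-HFD-fed Lyz2Cre/+.Egr2fl/fl mouse with 35 of 86 under at least 6 genes and with 32 of 104 by marker score. With marker scores 69.2% of cycling cells kept their class, and 92.8% to 99.6% did in the other clusterings.

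TMM scaling moved the median log2 ratio of all genes from -0.04 to -0.18 and gave 376 genes higher and 53 lower in cycling cells, in place of 439 and 33, and the lists with a median below 1 lay lower still by that shift. The counts of diet genes, 53 higher and 12 lower, were 312 and 245 with no filter and 31 and 4 with at least 500 counts. Equal class shares gave 6 lower, 1 of them among the 12. The genotype counts, 23 higher and 20 lower, were 517 and 486 with no filter and 10 and 5 with at least 500 counts. Equal class shares gave 12 higher, 10 of them among the 23. The log2 diet ratio of Chil3 in Egr2fl/fl mice, 4.56, reversed to -0.026 with equal class shares and was 0.34 without cells of neutrophil precursor-like parents, and that of S100a8, 3.69, was 0.59 and 1.57. With class shares set to the mean of all mice, an alternative chosen after seeing the data as were the weighting by cluster and the removal of neutrophil precursor-like parents, the cycling shares were 3.23%, 2.28%, 1.33% and 1.45%. It used the classes with at least 50 cells in each mouse, which leaves out Xcr1+ dendritic cell-like and Kupffer cell-like cells. The shares on CDA-HFD then lay further below those on ND than in the main values, in both genotypes.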
